A study of Mus musculus with 12 samples.

Results

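The 44 genes described here build and run the machinery of cell division: mitotic kinesins, centromere and kinetochore proteins, the spindle checkpoint, mitotic kinases, and the cyclins and ubiquitin enzymes that start and end mitosis. They were chosen by symbol from the RNA table, which lists 25700 genes and holds all 44. RNA-seq and ATAC-seq were run on Th2 cells of the mouse, which direct allergic responses as a class of helper T cell; ATAC-seq uses a transposase to tag accessible DNA. In each assay 3 libraries were labelled cKO (conditional knockout) and 3 WT. NRF2, a transcription factor whose gene is Nfe2l2, appears in the title of the series, and the design text names mouse models of allergic asthma. The deleted gene, the Cre driver, the age and sex of the mice, and whether a library came from 1 mouse or from pooled mice are not given in the sources used here, nor is whether libraries of a group came from separate mice. The p-values therefore measure the spread between libraries, which may be technical.

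Mitotic genes are transcribed in waves: their RNA climbs as a cell passes through S phase and G2, peaks around mitosis and is low in resting cells. In T cells this program follows activation, and its level in a bulk sample goes with the share of cells that are dividing. Many promoters of the program hold a CCAAT box, bound by NF-Y, and a cell cycle homology region with the letters TTTGAA, bound by the MuvB complexes that repress the genes in resting cells and, with B-Myb and FOXM1, switch them on in G2. In these bulk libraries fewer dividing cells and less mitotic RNA per cell cannot be told apart.

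Several facts of the series bear on every comparison. Nfe2l2 itself was at 452.8, 326.4 and 391.5 normalized counts in cKO libraries and 169.9, 155.3 and 147.4 in WT libraries (log2 change 1.29, adjusted p = 0.0438), so the RNA does not show a lower level of the gene that the title names; cKO libraries are those so labelled throughout. Transcripts of the Y-linked genes Ddx3y and Eif2s3y were listed at 0 in all 3 cKO libraries and lay between 116.8 and 140.5 in the 3 WT libraries. Xist, the RNA of the inactive X chromosome, was at 6284.2, 4331.3 and 7069.1 in cKO libraries and 4046.9, 3879.3 and 3173.6 in WT libraries, so the WT libraries held both Xist and Y-linked transcripts. Genotype and the difference in Y-linked transcripts cannot be told apart in any result here. Summed RNA was 6431081 to 7372007 normalized counts per library, and ATAC libraries held 13149952 to 18327127 tags. The share of tags in peaks was lowest in WT replicate 2, at 25.22%, against 34.87% to 38.28% in the other 5. All 10 T cell markers were detected, with summed shares of 0.267% to 0.28% in cKO libraries and 0.266% to 0.276% in WT libraries. The Th2 factor gene Gata3 was the highest of 8 Th2 markers, while Il4, Il5 and Il17rb had means below 10 normalized counts. Markers of other cell types took at most 0.00643% of any library per list; of the 6 lists, that of neutrophils, eosinophils and mast cells did not overlap between groups (0.000482% to 0.000552% in cKO libraries and 0.000266% to 0.000403% in WT libraries, with 2 of its 6 genes in the table and Cpa3 below a mean of 10), and its part in the results was not tested.

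RNA of the mitotic genes was lower in the cKO libraries for 41 of 44 members, with a median log2 change of -0.41, against 0.06 over the 18074 genes tested, of which 45% had a negative change. Log2 changes are cKO over WT on the scale log2(normalized count + 1). Together the 44 genes took 0.203%, 0.205% and 0.212% of the normalized counts of the cKO libraries, against 0.312%, 0.257% and 0.275% in the WT libraries. All 3 cKO libraries were thus below all 3 WT libraries, with the cKO libraries close together and WT replicate 1 the highest. Past an adjusted p of 0.05 in limma, 2 members fell, the kinesin gene Kif20b and the centromere gene Cenpw, and none rose; over all genes tested 0.172% fell and 0.0332% rose. At an unadjusted p under 0.05 there were 18 lower members and 0 higher, against 6.05% of all genes in each direction. All cKO values lay below all WT values for 19 members, against 9.76% of all genes, and no member lay wholly above, against 7.4%. Of the 42 members with an adjusted p in the authors' deposited table, 9 passed 0.05 as lower and 0 as higher. The shares were 3.9% and 1.78% of the 9263 genes with such a value. The shares of all genes given here are also the background for the counts of each role group below.

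**Figure D1:**
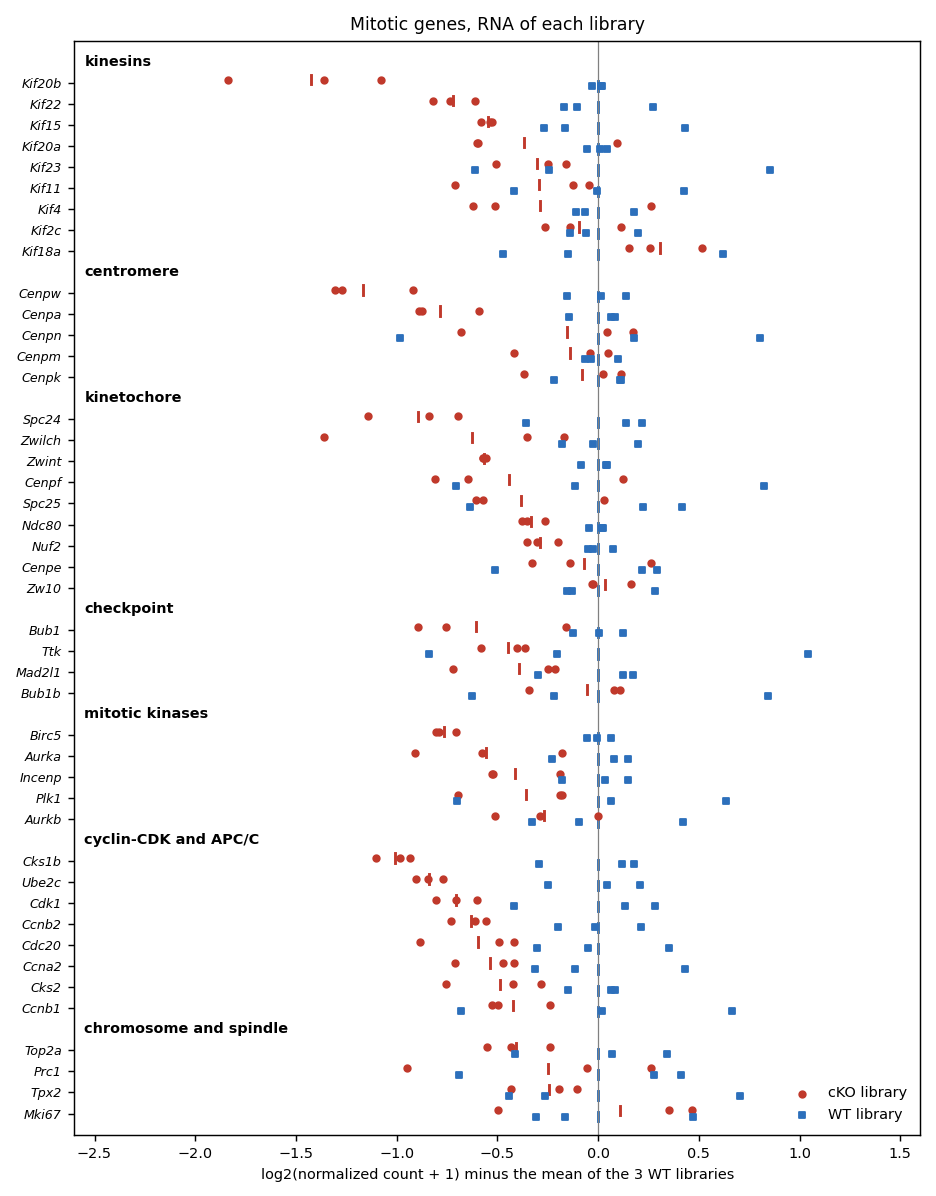
Each point is a library: log2(normalized count + 1) of a gene minus the mean of its 3 WT libraries (x axis), with circles for cKO and squares for WT libraries and short bars for the group means. Genes are grouped by role and sorted by log2 change. Kif20b and Cenpw lie farthest to the left, and the cyclin-CDK genes are nearly all shifted. WT points of genes such as Bub1b, Ttk and Plk1 spread more widely than the groups differ.

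Both calls were close to the threshold and depended on the fit. With all libraries kept, the adjusted p in limma was 0.446 for both genes without the mean-variance trend, and 0.0719 for Kif20b and 0.0688 for Cenpw after trimmed mean rescaling. Kif20b also missed the threshold with a pseudocount of 0.5 (0.0504) and Cenpw with quantile normalization (0.0542). Leaving out cKO replicate 1 or 3 gave Kif20b an adjusted p of 0.271 or 0.201. Leaving out WT replicate 1, 2 or 3 gave it 0.0571, 0.131 or 0.216, and it passed only when cKO replicate 2 was dropped. For Cenpw the values were 0.271 or 0.213 when cKO replicate 1 or 3 was dropped and 0.128 or 0.216 when WT replicate 2 or 3 was; it passed in the other 2 fits. The log2 changes in these fits stayed from -1.60 to -1.22 for Kif20b and from -1.29 to -1.10 for Cenpw. With a library left out, 10 of the 44 members changed sign in at least 1 fit: Kif23, Cenpk, Cenpn, Cenpe, Zw10, Bub1b, Ttk, Mki67, Tpx2 and Prc1.

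Promoters of the members were read for the 2 elements named above. RefSeq promoter windows on GRCm38.p6, from 250 bases before to 50 after a gene's start, matched 37 of the 44 members by symbol; Kif20a, Spc24, Zwilch, Aurkb, Incenp, Ccna2 and Tpx2 had no entry. CCAAT, on either strand, was found for 28 of the 37 (75.7%), against 42.8% of the other tested genes with an entry. TTTGAA, on either strand, was found for 26 (70.3%), against 15.7%, and both letter strings for 21 (56.8%), against 6.29%. Over all 27018 genes of the promoter table the shares were 41.1% for CCAAT, 20.2% for TTTGAA and 7.97% for both. Within the members the log2 change of RNA differed little with the elements: the median was -0.43 for the 26 with TTTGAA and -0.39 for the 11 without, and -0.43 for the 28 with CCAAT and -0.33 for the 9 without. A match is a string of letters, not a site shown to be bound. The window of Kif2c, counted among those with TTTGAA, lay at a start inside the gene, 117178772. Its region open in every ATAC library lay at another start, 117182624. The 5 windows below are those of the 2 genes that fell, of Cks1b, which has 4 CCAAT boxes, of Cdc20, where a CCAAT box precedes TTTGAA, and of Mki67, whose RNA differed little between genotypes. Each runs 5′ to 3′ on the strand of its gene, and capitals mark CCAAT (or ATTGG) and TTTGAA (or TTCAAA).
Kif20b: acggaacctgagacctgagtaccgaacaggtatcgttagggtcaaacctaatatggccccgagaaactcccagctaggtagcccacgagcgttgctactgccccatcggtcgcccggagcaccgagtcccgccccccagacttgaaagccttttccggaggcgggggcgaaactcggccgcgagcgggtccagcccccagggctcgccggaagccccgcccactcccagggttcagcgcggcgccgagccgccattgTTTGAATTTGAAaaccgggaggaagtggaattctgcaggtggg
Cenpw: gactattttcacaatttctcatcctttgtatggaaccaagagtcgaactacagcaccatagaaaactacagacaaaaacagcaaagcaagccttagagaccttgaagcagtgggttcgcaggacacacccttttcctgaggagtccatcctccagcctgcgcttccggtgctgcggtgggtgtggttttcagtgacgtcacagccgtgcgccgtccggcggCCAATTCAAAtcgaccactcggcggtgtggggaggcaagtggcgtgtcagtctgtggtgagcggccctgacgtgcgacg
Cks1b: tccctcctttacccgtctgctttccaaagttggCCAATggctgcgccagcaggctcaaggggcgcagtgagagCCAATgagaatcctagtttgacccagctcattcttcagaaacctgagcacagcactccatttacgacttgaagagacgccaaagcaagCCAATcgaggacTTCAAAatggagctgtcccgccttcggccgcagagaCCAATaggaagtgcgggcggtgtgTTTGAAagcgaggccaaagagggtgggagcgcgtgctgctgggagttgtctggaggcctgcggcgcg
Cdc20: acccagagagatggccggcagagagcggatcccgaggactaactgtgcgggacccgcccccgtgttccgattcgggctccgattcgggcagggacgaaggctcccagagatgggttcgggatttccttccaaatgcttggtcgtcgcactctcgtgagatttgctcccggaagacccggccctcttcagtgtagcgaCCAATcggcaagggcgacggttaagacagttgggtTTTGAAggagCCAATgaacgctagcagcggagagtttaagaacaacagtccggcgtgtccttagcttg
Mki67: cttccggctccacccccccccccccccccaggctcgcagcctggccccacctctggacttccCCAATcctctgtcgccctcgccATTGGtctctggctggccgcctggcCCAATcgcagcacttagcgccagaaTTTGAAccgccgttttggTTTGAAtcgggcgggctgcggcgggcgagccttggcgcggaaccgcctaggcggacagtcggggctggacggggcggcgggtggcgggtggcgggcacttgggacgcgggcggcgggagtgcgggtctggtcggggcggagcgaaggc
Kif20b (chr19:34922108-34922407, plus strand) holds TTTGAA at positions 8 and 14 counted from its start as position 1, end to end, and no CCAAT. In Cenpw (chr10:30200491-30200790, minus strand) CCAAT begins at position -29 and shares its last base with TTCAAA. The others are Cks1b (chr3:89418242-89418541, minus strand), Cdc20 (chr4:118437294-118437593, minus strand) and Mki67 (chr7:135716330-135716629, minus strand), which holds TTTGAA at positions -116 and -98.

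Kinesins walk along microtubules or take them apart to move chromosomes and shape the spindle. The log2 change was negative for 8 of 9 kinesin genes (median -0.30), and 1 of them, Kif20b, passed. Kif20b (chromosome 19, 34922335 to 34975750), a kinesin of late mitosis that works in the final separation of daughter cells, was at 86.6, 147.6 and 120.9 normalized counts in cKO libraries and 316.0, 315.6 and 305.3 in WT libraries. Its WT values were nearly equal and every cKO value was under them by more than the spread of either group. It fell 2.68-fold (log2 change -1.42, SE 0.25, adjusted p = 0.0459). Kif22, a kinesin that binds chromosome arms, was at 161.8, 171.3 and 186.6 in cKO libraries and 265.7, 254.3 and 345.7 in WT libraries, without overlap (log2 change -0.72, SE 0.23, adjusted p = 0.209). Kif15, which helps keep the spindle bipolar, did not overlap either: 323.0 to 336.2 in cKO libraries and 401.1 to 653.9 in WT libraries (log2 change -0.55, adjusted p = 0.332). Kif18a, which damps the swing of chromosomes at the metaphase plate, had the only positive change of the kinesins: 128.4, 119.5 and 153.6 in cKO libraries and 165.7, 77.1 and 96.6 in WT libraries, overlapping (log2 change 0.31, SE 0.32, adjusted p = 0.742). The remaining 5 overlapped between groups, with log2 changes of -0.37 for Kif20a, a paralog of Kif20b that also acts in late mitosis, -0.30 for Kif23, of the central spindle, -0.29 for Kif11, the motor that pushes spindle poles apart, -0.29 for Kif4, a chromosome-bound kinesin, and -0.10 for Kif2c, which takes microtubules apart at centromeres.

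Centromere proteins mark the place on the chromosome where the kinetochore is built. All 5 had negative changes with a median of -0.15, and Cenpw fell. Cenpw (chromosome 10, 30196009 to 30200603), a small histone-fold protein of the inner kinetochore that pairs with CENP-T, was at 258.4, 331.1 and 252.3 in cKO libraries and 562.2, 689.5 and 632.7 in WT libraries. The highest cKO value was well below the lowest WT value. It fell 2.24-fold (log2 change -1.17, SE 0.20, adjusted p = 0.0438). Cenpa, the histone H3 variant that defines the centromere, was at 322.8, 397.4 and 326.5 in cKO libraries and 625.9, 633.6 and 541.4 in WT libraries, also apart (log2 change -0.78, SE 0.19, adjusted p = 0.111; 0.00553 in the authors' deposited table). The other inner kinetochore genes overlapped between groups and had small changes, -0.15 for Cenpn, -0.14 for Cenpm and -0.08 for Cenpk.

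Kinetochore proteins of the outer layer grip microtubules. Of 9 members 8 had negative changes, the median was -0.38 and 0 passed in limma, while 2 had an unadjusted p under 0.05 and the same number passed in the authors' deposited table, Spc24 and Zwint. Spc24, a subunit of the Ndc80 complex that holds microtubule ends, was at 143.4, 116.1 and 158.3 in cKO libraries and 283.3, 200.5 and 299.5 in WT libraries (log2 change -0.89, SE 0.25, adjusted p = 0.169). Zwint, which links the outer kinetochore to the Zw10 complex, was at 1142.7, 1154.7 and 1142.8 in cKO libraries and 1748.2, 1601.5 and 1744.1 in WT libraries (log2 change -0.56, SE 0.14, adjusted p = 0.120). Neither overlapped, and the 3 cKO values of Zwint were nearly equal. The partners of Spc24 had smaller changes: -0.33 for Ndc80 and -0.29 for Nuf2, both without overlap, and -0.38 for Spc25, with overlap. Zw10, which recruits dynein to kinetochores and also acts in membrane traffic outside mitosis, had the change nearest 0 of all members: 237.5, 237.0 and 270.8 in cKO libraries and 294.4, 220.9 and 217.2 in WT libraries (log2 change 0.04, SE 0.22, adjusted p = 0.967). Zwilch, from the same complex, had a log2 change of -0.63 with cKO values of 93.2 to 214.6 that overlapped the WT values. Cenpf and Cenpe, large proteins of the outer kinetochore, had -0.44 and -0.07 and overlapped as well.

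The spindle checkpoint delays anaphase until every kinetochore is attached. Its 4 genes had a median of -0.42, none passed in limma or in the authors' deposited table, and 1 had an unadjusted p under 0.05. Bub1, a checkpoint kinase, was at 111.3, 101.1 and 168.7 in cKO libraries and 205.5, 189.2 and 173.2 in WT libraries, apart by a narrow margin (log2 change -0.60, SE 0.27, adjusted p = 0.396). Mad2l1, which encodes the inhibitor MAD2, was at 444.5, 319.9 and 455.7 in cKO libraries and 596.4, 575.6 and 429.7 in WT libraries, overlapping through WT replicate 3 (log2 change -0.39, SE 0.21, adjusted p = 0.489). Ttk, the kinase that starts the checkpoint signal, and Bub1b, which encodes BUBR1, had -0.45 and -0.05. Single WT libraries stood out for both: Ttk was at 214.9 in WT replicate 3 against 90.0 and 57.6 in WT replicate 1 and 2, and Bub1b at 532.9 in WT replicate 1 against 192.0 and 254.6 in WT replicate 2 and 3.

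Among the mitotic kinases and the chromosomal passenger complex, all 5 changes were negative (median -0.41), 0 passed in limma, and 3 had an unadjusted p under 0.05. Birc5, which encodes the passenger protein survivin, was at 350.8, 373.0 and 347.5 in cKO libraries and 635.6, 584.6 and 605.0 in WT libraries. The groups were far apart against their spread, and the log2 change was -0.77 (SE 0.18, adjusted p = 0.0977; 0.00309 in the authors' deposited table). Aurka, the kinase of spindle poles, was at 207.4, 164.8 and 273.9 in cKO libraries and 328.1, 264.8 and 343.5 in WT libraries, overlapping (log2 change -0.56, SE 0.24, adjusted p = 0.383). Incenp, the scaffold of the passenger complex, did not overlap (410.4 to 518.2 in cKO libraries and 522.2 to 655.1 in WT libraries, log2 change -0.41), while its kinase Aurkb and the polo kinase gene Plk1 did, with -0.27 and -0.36.

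The cyclin-CDK and anaphase-promoting genes were the role group with the lowest median, -0.61. All 8 were negative, 7 did not overlap between groups, 7 had an unadjusted p under 0.05, and 0 passed in limma. Over all genes 9.76% were wholly lower and 6.05% were lower at an unadjusted p under 0.05 in limma. Cks1b, Ube2c and Cdk1 passed in the authors' deposited table. Cks1b encodes a small protein that binds cyclin-dependent kinases and helps mark the CDK inhibitor p27 for destruction. It was at 290.9, 301.2 and 267.4 in cKO libraries and 468.9, 625.2 and 651.4 in WT libraries (log2 change -1.01, SE 0.20, adjusted p = 0.0650), and it passed without WT replicate 1, at 0.0342. Its paralog Cks2 had a log2 change of -0.49, with 399.1 to 552.2 in cKO libraries and 606.6 to 714.6 in WT libraries. Ube2c, the ubiquitin enzyme that works with the anaphase-promoting complex, was at 525.3, 504.3 and 552.5 in cKO libraries and 971.9, 1089.3 and 793.9 in WT libraries (log2 change -0.84, SE 0.18, adjusted p = 0.0772). For both Cks1b and Ube2c the cKO values were close together and the WT values more spread. Cdk1, the kinase that drives entry into mitosis, was at 311.4 to 359.0 in cKO libraries and 408.6 to 663.3 in WT libraries (log2 change -0.71, adjusted p = 0.197). The mitotic cyclins Ccnb2, Ccna2 and Ccnb1 had -0.63, -0.53 and -0.42, and Cdc20, which activates the anaphase-promoting complex, had -0.60; Ccnb1 overlapped, with WT replicate 2 at 298.1 and WT replicate 1 at 759.7.

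Of the 4 chromosome and spindle genes 0 passed in limma, none passed in the authors' deposited table, none had an unadjusted p under 0.05, and all 4 overlapped between groups. Top2a, the topoisomerase that untangles sister chromatids, was at 1340.8, 1454.3 and 1660.8 in cKO libraries and 2491.2, 1474.0 and 2058.4 in WT libraries (log2 change -0.41, SE 0.19, adjusted p = 0.416). Tpx2, an activator of Aurora A on the spindle, was at 434.5, 367.5 and 461.2 in cKO libraries and 809.2, 365.4 and 413.6 in WT libraries (log2 change -0.24, SE 0.27, adjusted p = 0.760). WT replicate 1 decided the sign of Tpx2, which was 0.11 without it. Mki67, whose protein Ki-67 coats mitotic chromosomes and serves as the usual marker of dividing cells, was at 1199.2, 666.1 and 1300.3 in cKO libraries and 1302.7, 759.8 and 839.6 in WT libraries (log2 change 0.11, SE 0.26, adjusted p = 0.907). The values were mixed between the groups, with the lowest in cKO replicate 2 and WT replicate 2. Prc1, which bundles microtubules of the central spindle, had -0.25 and overlapped.

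The spread within groups differed from gene to gene. The median coefficient of variation of the members was 15.5% over cKO libraries and 17.6% over WT libraries, and that of all genes with a mean of 50 or more was 17.7% over cKO libraries and 20.4% over WT libraries. WT replicate 1 was the highest of all 6 libraries for 23 of 44 members. Its value was over 1.5 times that of WT replicate 2 for 17 members (38.6%), against 17.1% of all genes whose mean reached 50 normalized counts (11943). Members whose groups did not overlap had a median coefficient of variation of 7.2% over cKO libraries and 11.3% over WT libraries, and members that overlapped had 18.5% over cKO libraries and 29.1% over WT libraries; absence of overlap itself favours low spread.

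The extent of the change varied with the length of the gene. The 15 members with the shortest span from start to end in the genome (2.8 to 11.0 kb) had a median log2 change of -0.53. Of these 9 did not overlap, 1 passed in limma and 6 passed in the authors' deposited table. The 15 of middle span (12.3 to 30.8 kb) had a median of -0.33. Of these 6 were free of overlap, 0 passed in limma and 2 passed in the authors' deposited table. The 14 longest (31.3 to 101.2 kb) had a median of -0.35, with 4, 1 and 1 by the same counts. Over all genes 9.76% were wholly lower, 0.172% fell in limma and 3.9% of those with a value fell in the authors' deposited table. Spearman's rho of span and log2 change was 0.43 over the 44 members and 0.12 over the 15786 tested genes with a span; members share libraries, so these are descriptions. All tested genes in the same 3 ranges of span had medians of -0.04, 0.04 and 0.12, and within each range the members were lower. Kif20b, at 53.4 kb, was the exception among long members. Libraries differed in this property by genotype: rho of span with a gene's deviation from its mean was 0.100, -0.006 and 0.107 in cKO libraries and -0.032, -0.113 and -0.096 in WT libraries. With each library's trend with span removed, the members' median was -0.42 and 3 passed, Kif20b (adjusted p = 0.0276), Cenpw (0.0276) and Cks1b (0.0487).

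**Figure D2:**
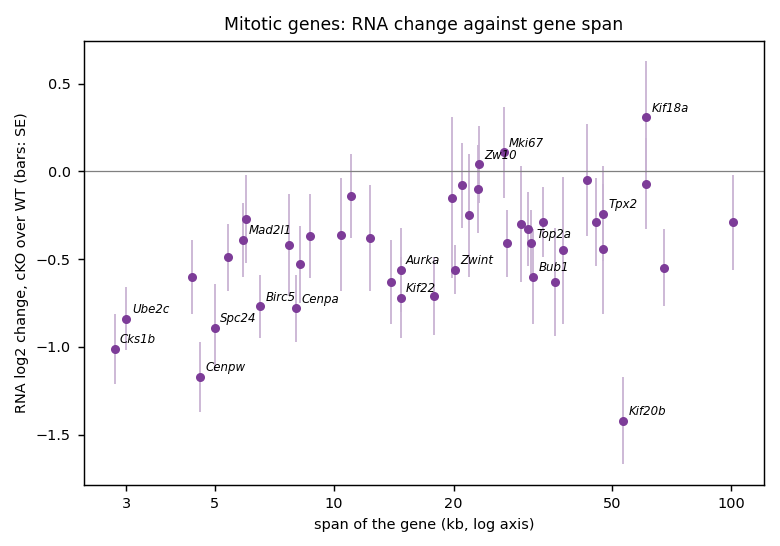
RNA log2 change of each mitotic gene, cKO over WT (y axis, bars are standard errors), against the span of the gene in kb (log axis). The short genes Cenpw, Cks1b and Ube2c lie at -1.17, -1.01 and -0.84, the 14 longest genes other than Kif20b lie between -0.63 and 0.31, and Kif20b at 53.4 kb is the lowest of all.

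Gene lists of DNA replication, the kinetochore and spindle, the centromere and the tubulins were set beside the members. For comparison, 9.76% of all genes tested were wholly lower in cKO libraries. The share that was lower at an unadjusted p under 0.05 in limma was 6.05%. In the authors' deposited results 3.9% of the genes with an adjusted p passed 0.05 as lower. DNA replication genes, which act in S phase, had a median log2 change of -0.48 with 31 of 32 negative and 17 not overlapping; 0 passed in limma, 14 had an unadjusted p under 0.05, and 5 passed in the authors' deposited table, all lower. The lowest p among them was that of Tyms, which makes thymidylate, at 293.8 ± 27.8 normalized counts in cKO libraries and 575.4 ± 172.0 in WT libraries (SD, n = 3 each; log2 change -0.93, adjusted p = 0.115). The 43 other kinetochore and spindle genes had a median of -0.17 with 34 negative and 12 wholly lower, and Tacc3, a spindle-pole protein that binds microtubules, was at 359.6 ± 70.1 in cKO libraries and 633.3 ± 71.1 in WT libraries (SD, n = 3 each; log2 change -0.83, adjusted p = 0.112). The 18 other centromere proteins had a median of -0.22, with Cenph at -0.85 (adjusted p = 0.240) and Hjurp, the chaperone that loads CENP-A, at 0.47 (adjusted p = 0.385). Tubulins and tubulin partners had a median of -0.17 over 12 genes, 11 of them negative, with Stmn1, which sequesters tubulin, at 1404.0 ± 41.8 in cKO libraries and 2348.1 ± 141.0 in WT libraries (SD, n = 3 each; log2 change -0.74, adjusted p = 0.0546; 0.000197 in the authors' deposited table).

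Gene groups that share a family or a partner with the members but are not confined to mitosis had medians from -0.24 to 0.27. The 18 tested genes of a list labelled kinesins of transport had a median of 0.27, with 14 positive. Not all of them are cargo motors. The list also holds Kif2a, of the same family as the member Kif2c, at 0.32, and Kifap3, a kinesin partner, at 0.04. Kif13b was at 0.75 (adjusted p = 0.228 in limma) and Kif3b at 0.41 (0.415). The change farthest from 0 in this list was negative, that of the low gene Kif26b, at 10.8, 13.7 and 4.7 in cKO libraries and 51.2, 14.2 and 21.4 in WT libraries (log2 change -1.39, SE 0.70, adjusted p = 0.453); it was named after its values were seen. Subunits and partners of the anaphase-promoting complex had a median of -0.24 and ran both ways. Of 17 genes 11 were negative, 8 wholly lower and 4 wholly higher in cKO libraries. The shares of all genes were 9.76% wholly lower and 7.4% wholly higher. Ube2s, which extends ubiquitin chains for the complex, was at 1323.8 ± 63.6 in cKO libraries and 2139.3 ± 96.1 in WT libraries (SD, n = 3 each; log2 change -0.69, adjusted p = 0.0656), and the scaffold Anapc1 at 1228.2 ± 80.1 in cKO libraries and 844.3 ± 63.2 in WT libraries (SD, n = 3 each; log2 change 0.54, adjusted p = 0.171). Condensin and cohesin genes had a median of -0.05 over 17 genes, 12 of them negative. Nipbl, the cohesin loader, was at 0.57 (adjusted p = 0.238 in limma) and the condensin gene Ncapg at -0.52 (0.489). The other condensin genes ran from -0.43 for Ncaph to -0.19 for Ncapg2, apart from Smc4 at 0.05. Cohesin genes and partners other than Nipbl ran from -0.09 for Stag1 to 0.28 for Stag2. The list was divided in this way after its values were seen. Genes of the DREAM, B-Myb and FOXM1 regulators had a median of -0.04 over 23 genes, 12 of them negative and 11 positive, with Rbbp4 at -0.54 (adjusted p = 0.225) and Mybl2, which encodes B-Myb, at -0.40 (adjusted p = 0.571). Foxm1, also named after its values were seen, had the highest change of this list: 242.6, 82.7 and 247.1 in cKO libraries and 187.4, 83.9 and 126.8 in WT libraries, overlapping (log2 change 0.44, SE 0.42, adjusted p = 0.722). No gene of these 8 lists passed in limma, where 41 of their genes had an unadjusted p under 0.05, 33 lower and 8 higher. Over all genes tested the share was 6.05% in each direction. Of the lower genes 14 were among the 32 of DNA replication and 7 among the 43 other kinetochore and spindle genes. The 17 genes of the anaphase-promoting complex list held 7 of the lower and 4 of the higher.

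**Figure D3:**
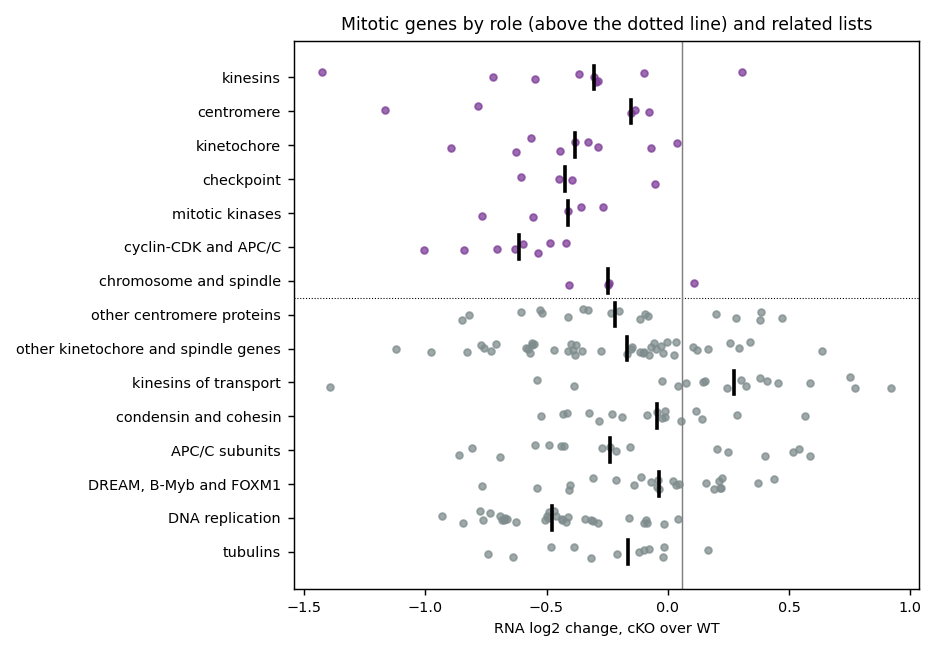
RNA log2 change of each gene, cKO over WT (x axis), for the 7 role groups of the mitotic genes (above the dotted line) and 8 related lists; black bars are medians and the grey line is the median of all tested genes, 0.06. The cyclin-CDK group (median -0.61) and DNA replication (-0.48) lie farthest to the left and the list labelled kinesins of transport (0.27) to the right.

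Open chromatin was present at a start of all 44 genes in every ATAC library, in 44 regions with a median length of 1760 bp. Starts came from the RefSeq promoter and gene tables, and for the 7 genes without a promoter entry both ends of the gene were used. At Kif2c the region open in every library lay at the start in the gene table, 117182624. The start of its promoter window, 117178772, lay in another region, called in WT replicate 1 and 3 alone. Peak heights are tags per 10000000 in the highest peak of a region, as deposited, and were quantile normalized before testing. The log2 change, cKO over WT, was positive for 39 of 44 regions (median 0.20). The 10585 regions within 1 kb of any gene start had a median of 0.12, 69% of them positive, and all 33531 regions a median of 0.02, with 52.5% positive. Past an adjusted p of 0.05 in limma, 3 member regions (6.82%) rose and 0 fell. The shares were 5.92% and 2.84% of the regions at gene starts and 3.67% and 4.33% of all regions. The share of member regions that rose was thus near that of regions at gene starts. Normalized heights of the cKO libraries lay wholly above those of the WT libraries at 16 member regions and wholly below at 0, against 29.3% and 8.36% of regions at gene starts; 16 of 44 is near the first of these shares. At an unadjusted p under 0.05 there were 14 higher member regions and 0 lower, against 24.3% and 7.58% of regions at gene starts and 14.8% and 13.1% of all regions.

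The regions that rose lay at Ttk, Cenpm and Nuf2. At Ttk (chr9:83834075-83835446) deposited heights were 128.0, 142.7 and 125.9 in cKO libraries and 94.4, 55.7 and 95.4 in WT libraries (log2 change 0.62, SE 0.12, adjusted p = 0.0170). At Cenpm (chr15:82243747-82245075) they were 104.9, 102.9 and 112.2 in cKO libraries and 84.2, 57.3 and 81.8 in WT libraries (log2 change 0.47, SE 0.11, adjusted p = 0.0303). At Nuf2 (chr1:169530930-169532275), whose region also holds the start of Gm34624, they were 94.2, 95.6 and 105.7 in cKO libraries and 80.4, 52.4 and 75.1 in WT libraries (log2 change 0.49, SE 0.12, adjusted p = 0.0309). At all 3 the cKO heights lay above the WT heights and WT replicate 2, the library with the fewest tags in peaks, was the lowest. None of the 3 passed in limma without any 1 of the cKO libraries, per kb of peak or without the mean-variance trend, and Cenpm did not without WT replicate 1 either (adjusted p = 0.0530). Next came Bub1 (0.54, adjusted p = 0.0629), Cks2 (0.22, 0.0680) and Top2a (0.29, 0.116).

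The size of the shift at mitotic genes, and the balance of calls over all regions, depended on the scaling. Of all regions 28% passed as higher and 5.48% as lower with library medians subtracted, and 1.37% and 9.03% without further scaling (459 higher and 3029 lower). With library medians subtracted, 34 of the 44 regions passed as higher, with a median of 0.63, but so did 59.2% of the regions at gene starts, with a median of 0.52. Without further scaling the median was 0.32 and 1 region passed, and regions at gene starts had 0.22; with cyclic loess the values were 0.17 and 0.10. Per kb of peak 0 member regions passed in limma and the median was 0.14, against 0.11 at gene starts.

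Of the 41 members with a negative RNA change 36 had a positive change in height and 5 a negative one, a count that follows from most RNA changes being negative and most heights positive. Spearman's rho of the 2 changes was -0.04 over the 44 members, which share libraries within each assay. At Kif20b (chr19:34921364-34922966) heights were 86.9, 81.8 and 95.4 in cKO libraries and 96.2, 64.7 and 103.6 in WT libraries, overlapping (log2 change -0.05, SE 0.12, adjusted p = 0.837). At Cenpw (chr10:30199441-30200928) they were 87.3, 85.2 and 76.4 in cKO libraries and 81.9, 54.0 and 73.2 in WT libraries (log2 change 0.26, SE 0.12, adjusted p = 0.178). At Cks1b (chr3:89417403-89419514), where the start of Shc1 lies in the same region, they were 254.2, 220.0 and 242.6 in cKO libraries and 204.9, 120.3 and 200.5 in WT libraries (log2 change 0.15, SE 0.09, adjusted p = 0.296). At Birc5 and Zwint the log2 changes were 0.03 and -0.01, with adjusted p-values of 0.881 and 0.978. The lowest change, -0.26, lay at Kif2c (chr4:117181827-117183286; adjusted p = 0.307), with 43.8, 51.3 and 49.8 in cKO libraries and 63.4, 58.4 and 66.1 in WT libraries, the 1 member whose deposited heights were wholly lower in cKO libraries.

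**Figure D4:**
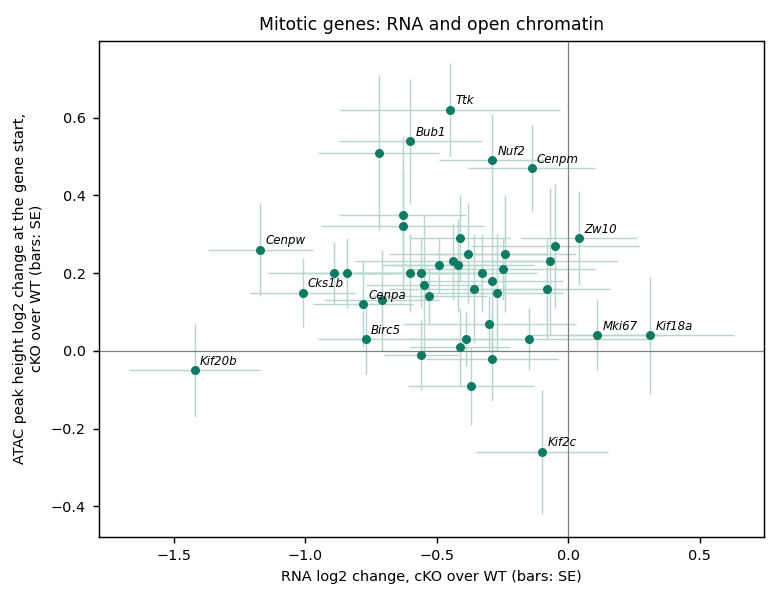
RNA log2 change (x axis) and log2 change of ATAC peak height at the gene start (y axis), both cKO over WT, for the 44 mitotic genes; bars are standard errors. Most points lie left of 0 and above 0; Kif20b is far left at -0.05 in height, Ttk is highest at 0.62 and Kif2c lowest at -0.26.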

How the data were processed

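The authors' deposited RNA table holds normalized counts per gene (a signal, not whole reads: only 0.18% of its values over 0 come within 0.001 of an integer), so raw depth is unknown and no count model was used. It also holds the authors' log2 fold changes and adjusted p-values; both signs of the fold change are present, and the column that runs cKO over WT was used. The submitters' processing notes name HOMER 4.11, Bowtie2 2.3.5.1, RSEM 1.3.3, STAR, edgeR, DESeq2 and the build mm10. Strand and the handling of reads shared by copied or overlapping genes are not given in the sources used here. Per the file headers, ATAC peaks were called in each library by HOMER findPeaks in histone style, with a Poisson p-value threshold of 0.001 and tag counts (signal) per 10000000 tags; the deposited peak score, fold change ratio and region size were not tested.

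The 18074 genes averaging 10 or more normalized counts, all 44 members among them, were tested on log2(value + 1) with limma 3.58.1 (empirical Bayes with a mean-variance trend) in R 4.3.3, with Benjamini-Hochberg adjustment over all of them. Peaks overlapping by at least 1 bp were merged, each region took the tag count of its tallest peak as its height, and the 33531 of 114463 regions with a peak in all 6 libraries were quantile normalized and tested likewise. A region belonged to a gene when it lay within 1 kb of its start. Both fits were tested on simulated data. Tables and figures were made with Python 3.11.15, pandas 2.3.3, numpy 2.4.6, scipy 1.17.1 and matplotlib 3.10.9.

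The members, role groups and gene lists, and the use of quantile normalization, were chosen with earlier results of these data known. Full values are given for members past the threshold, the 2 of each role group with the smallest p, those with a positive change and the one nearest 0. Alternatives were other scalings, filters, pseudocounts, fits, peak measures and each library left out; removing each library's trend with gene span was added after seeing the data.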

Additional observations from a re-analysis of the deposited data

How the results depend on the processing

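The median RNA change of the mitotic genes stayed negative under every alternative run, from -0.51 to -0.32 with a library left out, against -0.41. It was -0.17 on the authors' deposited fold changes, which are an unlike measure. These kept most of the change of Kif20b (-1.30 against -1.42) but little of that of Ttk (-0.11 against -0.45) and Cenpf (-0.11 against -0.44). Counts of calls depended on the fit. Of all genes 37 passed, against 6 without the mean-variance trend, 6 with trimmed mean rescaling, 92 with the span trend removed, 1783 with sample quality weights, 526 in the authors' deposited table and 1 to 150 with a library left out. Of the members 2 passed, against 0 without the trend, 0 with trimmed mean rescaling, 1 with a pseudocount of 0.5 (Cenpw), 1 with quantile normalization (Kif20b), 12 with sample quality weights, 9 in the authors' deposited table and 0 to 2 with a library left out. In the fit with sample quality weights the weight of cKO replicate 1 was 7.43, while those of the other libraries ranged from 0.44 to 1.12. Among ATAC regions 2681 passed, against 11223 with library medians subtracted, 611 without the trend, 1668 with a peak in at least 3 libraries, 4742 on summed tags, 833 per kb of peak, 3488 without further scaling and 377 to 2067 with a library left out. Of the member regions 3 passed, against 34 with medians subtracted, 1 without further scaling, 0 without the trend, 0 per kb of peak and 0 to 3 with a library left out. Their median of 0.20 was 0.63 with medians subtracted, 0.32 without further scaling, 0.14 per kb of peak and 0.16 to 0.21 with a library left out. The cause of these differences was not tested.

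The sign of some single values turned. For RNA, Zw10 was -0.02 with quantile normalization and -0.04 to 0.18 with a library left out, Mki67 -0.07 to 0.41, and Tpx2 -0.46 to 0.11, positive without WT replicate 1. For ATAC, Kif20b was 0.33 with medians subtracted, 0.02 without further scaling, 0.20 per kb of peak and -0.10 to 0.03 with a library left out, positive in 2 of those fits (0.01 and 0.03). Zwint was 0.54, 0.24 and 0.20 under the same 3 scalings, 0.03 on summed tags, and 0.06 and 0.01 in the fits lacking WT replicate 1 or cKO replicate 1. Per kb of peak Kif18a and Cks1b were -0.28, Birc5 and Ube2c -0.06 and Tpx2 -0.03. With a library left out Kif18a reached -0.04, -0.03 and -0.01 in 3 fits, Birc5 ranged from -0.03 to 0.08 (negative also at -0.02) and Mad2l1 from -0.01 to 0.07. Over all 44 members, RNA changes turned for 10 with a library left out and for 5 under 10 other fits (Cenpn, Cenpf, Zw10, Bub1b and Prc1), and ATAC changes for 7 and, under 8 other fits, 13. For members given with full values, each pair of a gene and an alternative was also counted, with the authors' deposited table among the RNA alternatives. These are counts of pairs, not of genes. With the sign kept, 17 RNA pairs were newly past the threshold and 15 no longer past it, while 249 did neither and 8 turned sign. For ATAC 16 pairs were newly past and 18 no longer past, while 301 did neither and 22 turned sign.

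Libraries with the same replicate number share only that number: deviations of same-numbered RNA libraries correlated at 0.12, 0.21 and -0.06, and those of ATAC libraries at -0.02, -0.01 and 0. With the replicate number as a block, 122 genes, 3 members (Kif20b, Cenpw and Cks1b), 2141 ATAC regions and 3 member regions passed. With 3 libraries a group and raw RNA depth unknown, small changes of the low members, such as Cenpn and Ttk, were not detectable.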

Other observations

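Several genes of the related lists had values not given above. Sgo1, the protector of centromeric cohesin, was at 80.6, 85.5 and 119.8 normalized counts in cKO libraries and 166.4, 168.2 and 228.9 in WT libraries, without overlap (log2 change -0.98, adjusted p = 0.171 in limma). Rrm1, the large subunit of the enzyme that makes deoxyribonucleotides, was at 1075.9, 880.0 and 1004.0 in cKO libraries and 1834.2, 1257.0 and 2012.8 in WT libraries (log2 change -0.76, adjusted p = 0.119 in limma). Tuba1c, an alpha tubulin whose reads may be shared with its close paralogs, was at 1284.0, 1261.3 and 1371.4 in cKO libraries and 1917.0, 1601.9 and 1971.4 in WT libraries (log2 change -0.48, adjusted p = 0.199 in limma). All 3 passed in the authors' deposited table, with adjusted p-values of 0.0336, 0.00642 and 0.0498.

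A few open regions near mitotic genes were called in WT libraries alone. A region inside Kif2c (chr4:117177666-117179084) holds the start of its promoter window, 117178772. The heights of this region were 21.1 and 8.3 tags per 10000000 in WT replicate 1 and 3, with no peak in the other libraries. Regions at the far ends of Kif20a and Ccna2 were called in WT replicate 1, at 7.2 and 7.6 tags. No peak at a position means that the caller passed none there, not that no tags fell there.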
